A study of Mus musculus with 15 samples.

Results

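The genes described here are 40 immediate early, stress and heat shock genes, taken as a fixed list of symbols and read from the gene counts of sorted mouse microglia. All 40 were found among the 36528 gene identifiers of the files, of which 31049 could be paired with a symbol. The 15 samples are RNA of cortical cells sorted by the Cx3cr1::GFP reporter, in which the fractalkine receptor gene, strongly used by microglia, drives a fluorescent protein; mice of both groups carried it. PS2APP mice (n = 9; 4 at 14 months of age and 5 at 15) were compared with non-Tg mice (n = 6; 2 and 4). PS2APP mice express mutant human forms of presenilin 2 and of the amyloid precursor protein and develop amyloid plaques, and the non-Tg mice lack these transgenes. The labels give neither the transgene promoters nor the number of reporter alleles. They also do not state that samples are different mice, and the tests below therefore rest on variation among samples, part of which may be technical.

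Immediate early genes are transcribed within minutes of a stimulus without new protein synthesis. Serum response factor and its partners at the CArG box, CREB at the cyclic AMP response element and NF-kB start them, and their products include transcription factors (Fos, Jun, Egr and Klf proteins) and brakes on the same signals (Dusp1, Zfp36, Nfkbia). In microglia they respond to tissue damage and are known to be induced while tissue is dissociated and cells are sorted. Heat shock genes are instead driven by heat shock factor, which binds repeated GAA units, and encode chaperones that fold or refold proteins.

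RefSeq promoter windows (assembly GRCm38.p6, 250 bases before to 50 after a transcript start) were at hand for 33 of the 40 genes. Egr1, Egr3, Ier2, Myc, Nfkbiz, Hspa8 and Hsp90aa1 had none, and several genes had more than 1 window. Stretches from 150 bases before to 30 after the start are printed for 6 genes on which the results turn. Fos, Zfp36 and Dusp1 stood far higher in 4 libraries. Egr2 differed between the genotypes without those 4 libraries but not over all 15 samples. Hsph1 and Hspe1 are heat shock genes that were not raised in the 4 libraries. Capitals mark motif matches. These are a TATA box in Fos (33 bases before the start, chr12:85473740-85473919, plus strand), a CArG box in Zfp36 (58 bases before, chr7:28379199-28379378, minus strand) and in Egr2 (72 bases before, chr10:67537719-67537898, plus strand), and a cyclic AMP response element in Dusp1 (143 bases before, chr17:26508443-26508622, minus strand). They are heat shock elements in Hsph1 (from 54 bases before and from 15 bases after the start, chr5:149636286-149636465, minus strand). In Hspe1 a run of heat shock elements, joined to an NF-kB site, begins 89 bases before the start (chr1:55087998-55088177, plus strand).
Fos: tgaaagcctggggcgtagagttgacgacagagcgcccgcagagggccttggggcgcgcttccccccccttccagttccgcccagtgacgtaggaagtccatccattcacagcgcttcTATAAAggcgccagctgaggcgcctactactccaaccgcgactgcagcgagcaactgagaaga
Zfp36: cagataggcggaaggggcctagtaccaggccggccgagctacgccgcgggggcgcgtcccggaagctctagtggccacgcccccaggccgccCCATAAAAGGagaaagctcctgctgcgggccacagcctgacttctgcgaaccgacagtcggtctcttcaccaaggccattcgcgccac
Dusp1: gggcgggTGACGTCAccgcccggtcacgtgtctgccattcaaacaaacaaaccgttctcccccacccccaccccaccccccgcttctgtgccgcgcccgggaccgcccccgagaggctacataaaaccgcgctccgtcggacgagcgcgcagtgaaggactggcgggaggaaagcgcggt
Egr2: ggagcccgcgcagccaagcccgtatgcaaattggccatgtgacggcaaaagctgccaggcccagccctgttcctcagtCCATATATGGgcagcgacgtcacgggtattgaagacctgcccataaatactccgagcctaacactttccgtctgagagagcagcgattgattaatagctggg
Hsph1: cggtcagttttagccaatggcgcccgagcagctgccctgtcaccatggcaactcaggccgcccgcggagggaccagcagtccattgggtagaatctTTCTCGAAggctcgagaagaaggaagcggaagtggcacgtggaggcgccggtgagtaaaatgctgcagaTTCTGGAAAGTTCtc
Hspe1: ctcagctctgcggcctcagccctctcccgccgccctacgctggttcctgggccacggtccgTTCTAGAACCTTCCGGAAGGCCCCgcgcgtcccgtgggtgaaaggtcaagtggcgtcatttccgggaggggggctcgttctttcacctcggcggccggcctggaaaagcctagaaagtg

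Motifs were searched on both strands of the whole windows, and the share of genes with a match in any of their windows is given beside each count. The cyclic AMP response element TGACGTCA lay in 4 of the 33 genes (Btg2, Dusp1, Maff and Ppp1r15a), against 2.03% of all genes with a window. A CArG box lay in Egr2 and Zfp36 (1.81% of all genes), and the AP-1 site TGANTCA, the sequence that Fos and Jun proteins bind, in Csrnp1 and Tnfaip3 (8.97%). The heat shock element of 2 units (GAANNTTC or TTCNNGAA) lay in 6 of the 7 heat shock genes with a window and in 3 of the 26 immediate early genes, against 16.97% of all genes. Its form of 3 units lay in Hspd1, Hspe1 and Hsph1 alone (0.662% of all genes). Hspd1 and Hspe1 share their upstream sequence, and the windows of Hspa1a and Hspa1b were identical at 296 of 300 positions, so these are not separate observations. NF-kB sites lay in 13 genes (9.55% of all genes) and the TATA box TATAAA in 6 (15.7%). These matches describe the sequence and show no binding. Only matches to these patterns inside the windows were counted, so a missing match does not show that a gene lacks such an element.

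Levels below are CPM, the usual depth-scaled read counts, on library sizes adjusted with TMM, a method that equalises the bulk of genes. Total counts were 3664742 to 8455237 per sample, and no pair of samples of the same genotype agreed within sampling noise. PS2APP samples 1 (15 months) and 4 (14 months) and non-Tg samples 9 (15 months) and 13 (14 months) stand apart in these genes. They were picked for that in earlier work on these data, so they are set beside the other 11 without a test, and the genotype comparison is given with and without them. Samples 4, 9 and 13 had the highest totals of all. All 15 libraries held the defining microglial markers, all 10 passing the count filter, with a summed level of 32654 to 39612 CPM in the 4 libraries and 26066 to 42817 in the other 11.

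Summed expression of the set was highest in the 4 libraries, through its immediate early genes. Summed over the 40 genes, CPM was 7880 in sample 1, 7841 in sample 4, 15406 in sample 9 and 26969 in sample 13, against 1888 to 2735 in the other 11. Immediate early genes made up 7748, 7661, 15188 and 26705 of these sums, against 1773 to 2613. The heat shock genes summed to 132, 180, 217 and 264 CPM against 95.6 to 238, so only sample 13 exceeded the other 11 in them. In 24 of the 35 genes that passed the count filter every 1 of the 4 libraries lay above all other 11. Fosb, 1 of the 24, had 0 to 19 reads in the other 11 and passed the filter only with the 4 libraries included. Its place in these counts therefore follows in part from the filter. Over all 13994 genes tested 0.572% did, 80 genes, of which 24 are described here. The median difference in mean log2 CPM between the 4 libraries and the rest was 2.15 over the 35 genes and 0.00 over all genes tested. Within the 4, both non-Tg libraries exceeded both PS2APP libraries in 25 of 35 genes, against 17.9% of all genes tested. Sample 13 was the highest of the 4 in 25, against 27.9% of all genes. The full order of samples 13, 9, 4 and 1 held in 10 of the 35. In RNA from a pool of cells, more cells with a transcript and more transcript per cell cannot be told apart.

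**Figure D1:**
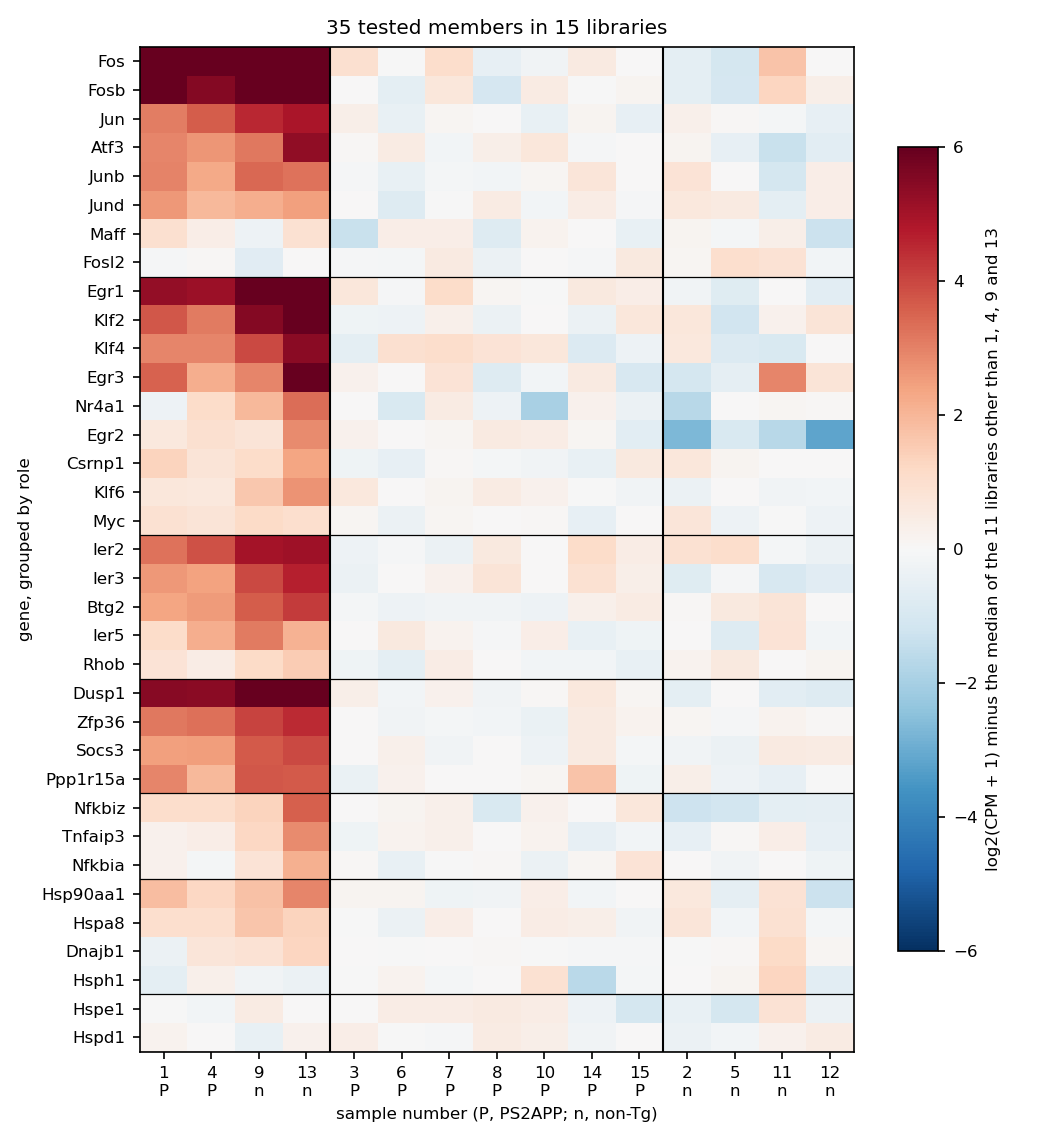
Heat map of log2(CPM + 1) in each library (columns, by sample number) less the median of the 11 libraries other than 1, 4, 9 and 13, for the 35 tested genes (rows, grouped by role and separated by lines); the colour scale stops at 6 on either side. Samples 1, 4, 9 and 13 are red in most rows from Fos to Ppp1r15a, and close to white in Fosl2, Hsph1, Hspe1 and Hspd1.

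The AP-1 family, whose proteins pair to form the AP-1 transcription factor, held the largest differences. Fos stood at 267 CPM in sample 1, 268 in sample 4, 982 in sample 9 and 3554 in sample 13. In the other 11 it ranged from 0.554 to 9.53 with a median of 2.25, which was 2 to 46 reads. The lowest of the 4 was 28.0 times the highest of the 11, so the sets were far from overlapping. Fosb, a close relative of Fos, stood at 144, 92.3, 335 and 1461 CPM in samples 1, 4, 9 and 13, and at most at 3.94 in the rest. Jun, the usual partner of Fos, stood at 475, 704, 1327 and 1699 CPM against 39.7 to 71.0. Atf3, a stress-induced member, stood at 113, 93.8, 135 and 600 CPM against 4.97 to 22.9. Junb and Jund, the other Jun proteins, were also above all 11 in each of the 4. Fosl2 did not share the pattern, with 18.3 to 31.2 CPM in the 4 libraries and 23.2 to 61.8 in the rest, and neither did Maff, a small Maf protein, of which samples 1 and 13 alone exceeded the 11.

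Among the EGR, KLF and NR4A transcription factors 7 of 9 lay above the 11 in all 4 libraries. Egr1, a zinc finger factor and a standard marker of recent stimulation, stood at 1019, 929, 1975 and 3722 CPM in samples 1, 4, 9 and 13, and at 15.0 to 56.2 in the rest. Klf2 stood at 54.0, 34.8, 187 and 413 CPM against 0.831 to 6.04, and Klf4 at 16.0, 16.0, 34.0 and 94.4 against 0.207 to 3.63. Both factors were low outside the 4 libraries. Klf6, the KLF gene with the highest level per length here, moved less, with 452, 438, 868 and 1799.5 CPM against 217 to 434. Egr3 stood at 63.6, 23.9, 41.0 and 507 CPM, and because non-Tg sample 11 held 41.2, the sets overlapped. Nr4a1, an orphan nuclear receptor, stood at 3.62, 11.2, 20.7 and 57.8 CPM against 0.490 to 7.03, so sample 1 was within the range of the rest. Myc and Csrnp1 lay above the 11 in each of the 4 libraries by narrow margins, 1.04-fold and 1.05-fold for the lowest of the 4 over the highest of the 11.

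Early response genes of mixed function and the feedback inhibitors followed the same libraries. Dusp1, a phosphatase that switches off MAP kinases, stood at 435, 419, 1327 and 1959 CPM in samples 1, 4, 9 and 13 and at 4.80 to 14.2 in the rest, with a lowest-to-highest ratio of 29.5. Zfp36, which speeds the decay of cytokine mRNA, stood at 1392, 1516, 2517 and 3385 CPM against 115 to 225. All 4 tested feedback inhibitors, with Socs3 (a brake on cytokine receptors) and Ppp1r15a (a phosphatase subunit of the stress response), were above the 11 in every 1 of the 4. Ier2 stood at 30.4, 44.8, 104 and 109.7 CPM against 1.55 to 5.98, and Ier3 at 25.5, 21.7, 65.8 and 109 against 1.24 to 7.22. Btg2, an antiproliferative gene, stood at 429 to 1527 CPM in the 4 against 65.6 to 144. Rhob, a small GTPase, had the highest level per length of all 40 genes outside the 4 libraries, and its sets overlapped, with 1422 to 2981 CPM against 687 to 1556. Dusp2 and Gadd45b were too low for the tests. Dusp2 had 10, 14, 6 and 68 reads in samples 1, 4, 9 and 13 and 0 to 5 in the others, and Gadd45b had at most 8 reads in any sample.

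NF-kB feedback genes moved less. Nfkbiz, an atypical nuclear inhibitor of NF-kB that also helps transcription, stood at 121, 117, 145 and 688 CPM against 23.7 to 91.9. Nfkbia, the classic inhibitor, stood at 37.7, 28.1, 55.5 and 137 CPM against 22.2 to 54.6, and Tnfaip3, an enzyme that edits ubiquitin on NF-kB regulators, at 109, 118, 216 and 641 against 62.5 to 119. Only for Nfkbiz, of these 3, were the sets separate. In the other 2 genes the non-Tg libraries 9 and 13 were high and the PS2APP libraries 1 and 4 lay within the range of the rest.

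Levels between genes can be compared only per length, for which the deposited nRPKM were used. Outside the 4 libraries the median nRPKM was 122 for Rhob, 23.2 for Zfp36, 17.9 for Klf6, 8.47 for Ier5 and 7.20 for Btg2, but 0.288 for Fos and 1.23 for Dusp1. In the 4 libraries Fos ranged from 33.7 to 453 nRPKM, Zfp36 from 208 to 511, Rhob from 171 to 357, Egr1 from 81.0 to 323 and Dusp1 from 57.8 to 269. Fos, low in most libraries, thus reached a level between those of Rhob and Zfp36 at its highest.

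Heat shock genes for the most part did not follow. Hsph1, a cytosolic co-chaperone of the HSP110 family, stood at 15.1, 29.1, 20.2 and 18.2 CPM in samples 1, 4, 9 and 13 and at 6.97 to 58.2 in the rest. Hspd1 and Hspe1, the mitochondrial chaperonin and its lid, had 5.65 to 9.64 and 8.78 to 14.1 CPM in the 4 libraries against 6.05 to 11.8 and 4.16 to 18.9. For all 3 the 4 libraries lay inside or below the range of the others. Dnajb1, a co-chaperone that feeds clients to HSP70, stood at 33.0, 73.0, 79.8 and 105 CPM against 40.7 to 97.8, and only sample 13 exceeded all 11. Hspa8, the constitutive HSP70, stood at 48.3, 47.9, 78.6 and 61.3 CPM against 18.4 to 46.2, and Hsp90aa1, the inducible cytosolic HSP90, at 16.2, 10.2, 14.7 and 34.3 against 0.930 to 7.67. These 2 chaperones were thus above the 11 in each of the 4, by 2.11-fold and 4.75-fold in the ratio of means. Hspa1a, the inducible HSP70, was not tested. It had 3, 14, 28 and 178 reads in samples 1, 4, 9 and 13 and 0 to 8 in the others. Reads of Hspa1a and its near-identical copy Hspa1b (at most 7 reads) can be split between them by the counting, and Hspb1, a small heat shock protein, had at most 7 reads.

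**Figure D2:**
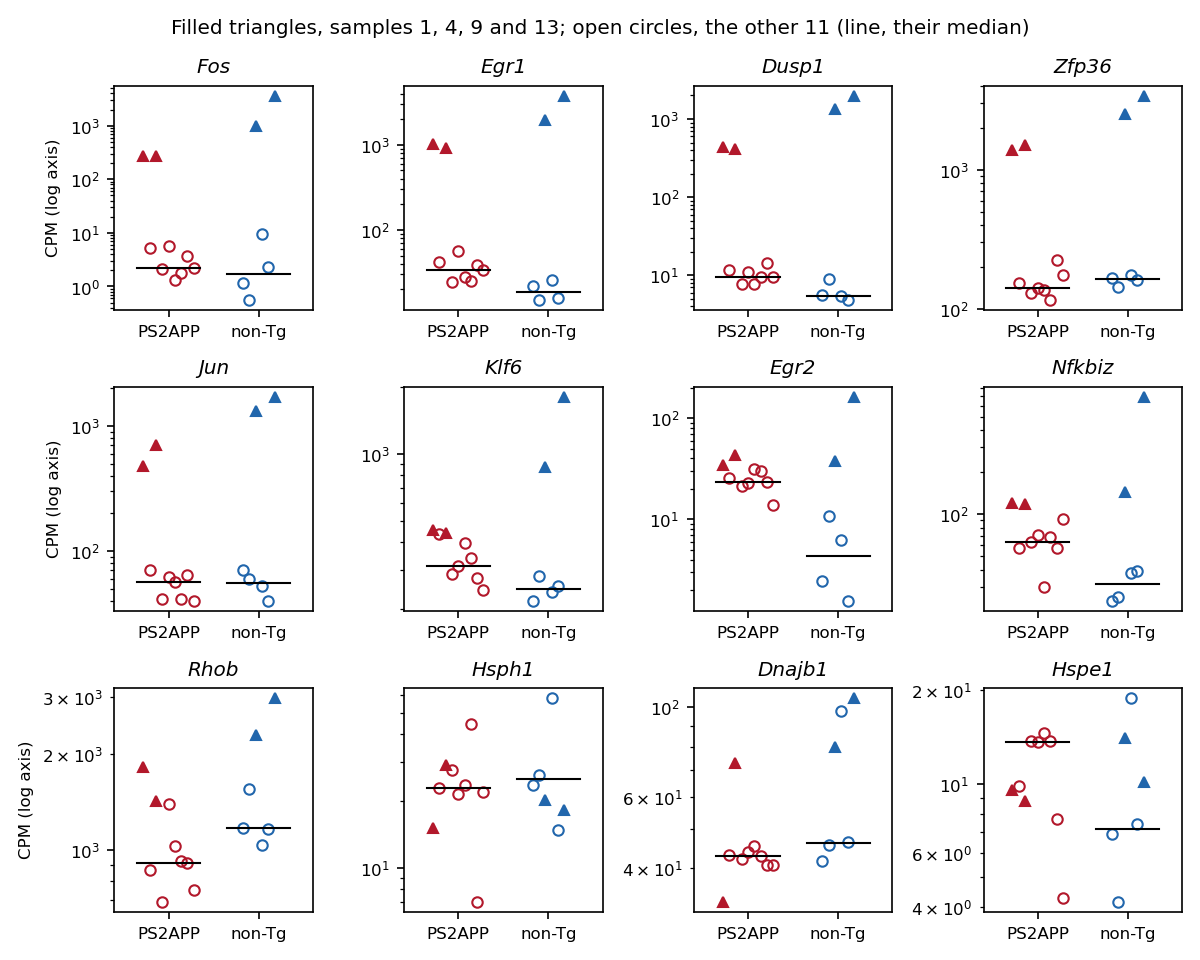
Level of 12 genes in each library, in CPM on a log axis, for PS2APP (red) and non-Tg (blue); filled triangles are samples 1, 4, 9 and 13, open circles the other 11, and the line is the median of the open circles of each group. Triangles lie far above the circles in Fos, Egr1, Dusp1, Zfp36 and Jun and among them in Hsph1 and Hspe1, and the open circles of PS2APP and non-Tg are separate in Egr2.

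Markers of other cells were set beside these values. Both non-Tg libraries of the 4 lay above the other 11 in the choroid plexus and astrocyte lists. Choroid plexus markers summed to 429 CPM in sample 9 and 121 in sample 13, against 10.1 to 71.3 in the other 11, and astrocyte markers to 858 and 1088 against 319 to 712. Oligodendrocyte markers summed to 777 CPM in sample 9 and 295 in sample 13, against 121 to 322. In sample 13, the highest in Fos, erythrocyte markers summed to 53.5 CPM against 3.6 to 30.7, and border-associated macrophage markers to 37.0 against 65.4 to 253. PS2APP samples 1 and 4 lay within the range of the other 11 for the neuron, astrocyte, oligodendrocyte, choroid plexus and erythrocyte lists. They held 62.1 and 75.9 CPM of the macrophage markers, so sample 1 was below the range of the 11. Endothelial and mural (47.8 to 56.5 CPM) and monocyte (35.8 to 44.9) markers in the 4 lay within the ranges of the 11, 47.6 to 107 and 21.6 to 77.8. The neutrophil sum, 403 to 567 CPM against 260.5 to 648, was mostly Csf3r, the only 1 of its 9 genes to pass the filter. The granule and calprotectin genes of that list were high in sample 13, with S100a8 at 26.9 CPM (at most 9.74 in the other 11), S100a9 at 23.2 (9.95) and Ngp at 16.8 (6.01). Sample 9 held 11.8 CPM of S100a8, and samples 1 and 4 held 0. T and NK cell markers summed to at most 11.3 CPM in any sample, with Ncr1 at 0 in all. The part of handling, depth or other cells in the 4 libraries was not tested.

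How the genes vary among themselves was read in the 11 remaining libraries, because a correlation over all 15 would rest on the gap between the 4 and the rest. Over the 595 pairs of tested genes the median Pearson r of log2 CPM was 0.06. It was above 0.7 in 12 pairs, or 2.02%, against 2.23% of all pairs of genes tested. The 406 pairs of immediate early genes had a median r of 0.04, with 2.22% above 0.7. Heat shock genes had a higher median, 0.42 over 15 pairs of which 13 were positive, and no pair above 0.7. Of all pairs of genes tested, 48901297 of 97909021 were positive. The 15 pairs share few genes and are not separate observations. Without samples 11 and 14, r with Hsph1 moved from 0.58 to -0.32 for Dnajb1 and from 0.28 to -0.10 for Hspd1. That r stayed positive for Hspa8 (0.28), Hspe1 (0.31) and Hsp90aa1 (0.67). The remaining pairs of heat shock genes were not tested in this way. Between heat shock and immediate early genes the median was 0.04 over 174 pairs. The highest were Hspe1 with Ier5 (0.84), Fosb with Fos (0.82), Egr3 with Fos (0.81) and Dusp1 with Egr2 (0.80). Fosb, counted in these pairs, had 0 to 19 reads and did not pass the count filter over the 11. The lowest was Tnfaip3 with Junb (-0.84). These are descriptions over 11 libraries that differ in depth and may share steps of preparation.

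With Fos itself, 2 of 34 genes had r above 0.7, or 5.88% with Fosb counted, against 1.81% of all genes. One was Egr3 (Pearson r 0.81, permutation p = 0.00173; Spearman rho 0.84, permutation p = 0.00181). The other was Fosb (r 0.82, rho 0.77), which had 0 to 19 reads in these libraries and did not pass the count filter over the 11. Its value is a description only, and Egr3 alone was above 0.7 when Fosb is set aside. Egr1 followed with r 0.63 (permutation p = 0.0359) and rho 0.65 (permutation p = 0.03275). Without samples 5 and 11, the farthest from the median of Fos, r was 0.75 for Egr3, 0.62 for Fosb and 0.75 for Egr1. The p-values are not adjusted for the 34 relations, and Fos rests on 2 to 46 reads here. Other genes that were high beside Fos in the 4 libraries had lower values, with r 0.11 for Jun, 0.32 for Zfp36, 0.13 for Dusp1 and -0.59 for Ier2. Without samples 5 and 11 these were 0.31, 0.22, 0.66 and -0.46, and Nr4a1 moved from 0.46 to 0.70, so several values depend on those samples. With Hsph1, 1 of 34 genes was above 0.7 (2.94%, against 1.47% of all genes), namely Tnfaip3 (r 0.76, permutation p = 0.00230; rho 0.64, permutation p = 0.0412). Without samples 11 and 14 that r was 0.60. Dnajb1 had r 0.58 with Hsph1 and -0.32 without those samples, so it rests on them.

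**Figure D3:**
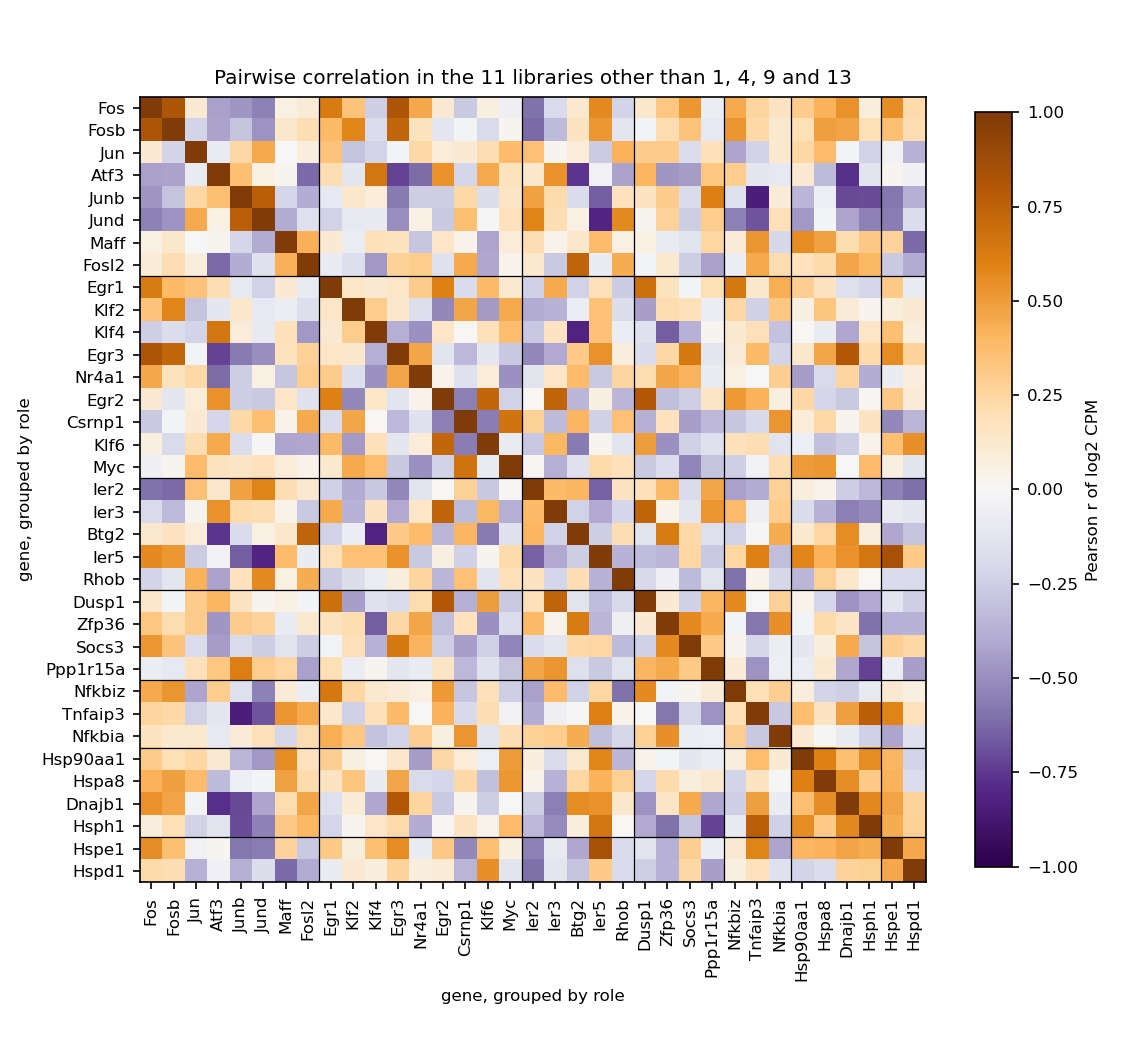
Pearson r of log2 CPM for every pair of the 35 tested genes over the 11 libraries other than 1, 4, 9 and 13 (rows and columns in the order of the heat map, lines between role groups; colour from -1 to 1). High values are scattered, as with Fos, Fosb and Egr3, and the 6 heat shock genes at the lower right are mostly positive with a median of 0.42. Without samples 11 and 14, r of Hsph1 turned negative with Dnajb1 and Hspd1 and stayed positive with Hspa8, Hspe1 and Hsp90aa1. Fosb had few reads and did not pass the count filter over these 11 libraries.

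PS2APP was then compared with non-Tg, in a fit over all genes with age as a covariate. With all 15 samples 0 of the 35 tested genes passed an adjusted p of 0.05 by edgeR's quasi-likelihood test with Benjamini-Hochberg adjustment, against 1.18% of the 13994 genes tested. At an unadjusted p under 0.05 there were 12, against 1635 of the 13994. DESeq2 and limma-voom called 0 of the 35 as well, though DESeq2 gave no adjusted p for 15 of them. The log2 fold change was negative in 32 of 35 genes, with a median of -0.94 against -0.02 over all genes. Fos had 3.17 ± 1.74 CPM in the PS2APP (SD, n = 7) and 3.39 ± 4.16 in the non-Tg samples (SD, n = 4) outside the 4 libraries. Its log2 fold change was -3.21 ± 1.45 (SE, edgeR adjusted p = 0.393) over all 15 and 0.17 ± 0.77 (0.949) over the 11. The latter had no stable sign, with -0.37 without non-Tg sample 5 and 1.31 without non-Tg sample 11. The groups overlapped in all 35 genes, where 0.636% of all genes had groups that did not.

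Genes with the smallest p over 15 samples were Dnajb1, Klf2, Tnfaip3, Rhob, Nr4a1 and Btg2. The log2 fold change of Dnajb1 was -0.67 ± 0.22 (edgeR adjusted p = 0.182) and -0.42 ± 0.24 without the 4 libraries, and -0.065 when non-Tg sample 11 (97.8 CPM, the next at 46.5) was left out as well. Klf2 had -2.89 ± 1.01 (edgeR adjusted p = 0.210) and -0.05 ± 0.61 without them. Tnfaip3 stood at -0.97 ± 0.35 and 0.07 ± 0.22, Nr4a1 at -1.63 ± 0.62 and -0.02 ± 0.67, and Btg2 at -1.55 ± 0.62 and -0.41 ± 0.22. Rhob kept its sign, with -0.64 ± 0.24 over 15 samples and -0.39 ± 0.19 over 11 (edgeR adjusted p 0.252 and 0.330). Without PS2APP sample 1, Klf2 (-4.00, edgeR adjusted p = 0.0472) and Egr3 (-3.38, 0.0491) were called lower. Without non-Tg sample 13 the sign turned in Atf3, Egr2, Nfkbia and Nfkbiz, to 0.16, 1.14, 0.027 and 0.63, and in Jund and Hsp90aa1, to 0.073 and 0.062, with 0 of these 6 called.

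Samples 1, 4, 9 and 13 were picked for high levels of genes of this set. The p-values without them do not allow for that choice. Without them (7 PS2APP against 4 non-Tg), Egr2 and Nfkbiz were called higher in PS2APP. These are 2 of 34 tested genes, against 0.789% of the 14195 genes tested that were called higher. An unadjusted p under 0.05 was reached by 4 of the 34, against 2111 of the 14195. The median log2 fold change of the 34 was -0.03, against -0.02 over all genes, with 16 higher and 18 lower.

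Egr2, a zinc finger factor known for myelination and for macrophage and lymphocyte responses, had a lowest level of 13.7, a median of 23.7 and a highest of 31.8 CPM in the 7 PS2APP samples. The 4 non-Tg samples 2, 5, 11 and 12 had 2.45, 10.8, 6.22 and 1.55 CPM, all below every PS2APP sample. The log2 fold change was 2.24 ± 0.43 (4.73-fold, edgeR adjusted p = 0.0137), and the mean was 24.2 ± 5.93 CPM (SD, n = 7) in PS2APP and 5.26 ± 4.22 (SD, n = 4) in non-Tg. It was called in all 11 fits that left out 1 more sample, with log2 fold changes from 1.94 to 2.74. Of the 34 tested genes 1, Egr2, had groups that did not overlap in the 11 samples. The share over all genes was 3.33%, so 1 of 34 is no more than that share. Non-Tg samples 9 and 13 held 38.0 and 161 CPM of Egr2, and over all 15 samples its log2 fold change was -0.05 ± 0.62 (edgeR adjusted p = 0.988).

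Nfkbiz had 29.9, 62.8 and 91.9 CPM as the lowest, median and highest of the 7 PS2APP samples, and 23.7, 25.5, 37.7 and 39.0 in non-Tg samples 2, 5, 11 and 12. PS2APP sample 8 was thus within the range of these 4. The samples left out held 121 and 117 CPM (PS2APP samples 1 and 4) and 145 and 688 CPM (non-Tg samples 9 and 13). Over the 11 samples the log2 fold change of Nfkbiz was 1.07 ± 0.25 (2.10-fold, edgeR adjusted p = 0.0484). The call was narrow. It held in 2 of the 11 fits that left out 1 more sample, those without PS2APP sample 8 and without non-Tg sample 11, with edgeR adjusted p from 0.0228 to 0.120 over the 11. It was lost with no age term, with RLE or no scaling and with limma-voom (adjusted p 0.0505 to 0.0681) and kept with DESeq2 (adjusted p = 0.00316). DESeq2 called 551 of all 14195 genes over these samples, against 142 by edgeR. The log2 fold change itself stayed between 0.92 and 1.13 over all these fits.

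Other genes were higher in PS2APP in these 11 samples without passing the test. Egr1 had 35.6 ± 11.3 CPM (SD, n = 7) against 19.6 ± 5.05 (SD, n = 4). The difference was 0.93 ± 0.28 on the log2 scale at an edgeR adjusted p of 0.120. DESeq2 called Egr1 (adjusted p = 0.0359), but it called 551 of all 14195 genes here, against 142 by edgeR. Ier3 stood at 1.22 ± 0.58, Atf3 at 0.73 ± 0.36, Dusp1 at 0.73 ± 0.38 and Klf6 at 0.34 ± 0.16 (SE; edgeR adjusted p from 0.336 to 0.394). Jun (-0.07 ± 0.23), Zfp36 (-0.04 ± 0.18), Hsph1 (-0.33 ± 0.41), Hspd1 (0.03 ± 0.38) and Hspe1 (0.27 ± 0.48) lay within 1 SE of 0.

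Neuron markers were lower in PS2APP in the same 11 samples, with sums of 29.0 to 129 CPM against 164 to 278, so the groups did not overlap in them. The same held over all 15 samples, with 69.3 and 103 CPM in PS2APP samples 1 and 4 and 267 and 196 in non-Tg samples 9 and 13. Endothelial and mural markers summed to 47.6 to 84.3 CPM in PS2APP and 61.5 to 107 in non-Tg, border-associated macrophage markers to 111 to 253 and 65.4 to 235, and microglial markers to 26066 to 38228 and 32394 to 42817. Neurons and macrophages also use Egr2 and Egr1, and the part of these cells in the results was not tested.

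**Figure D4:**
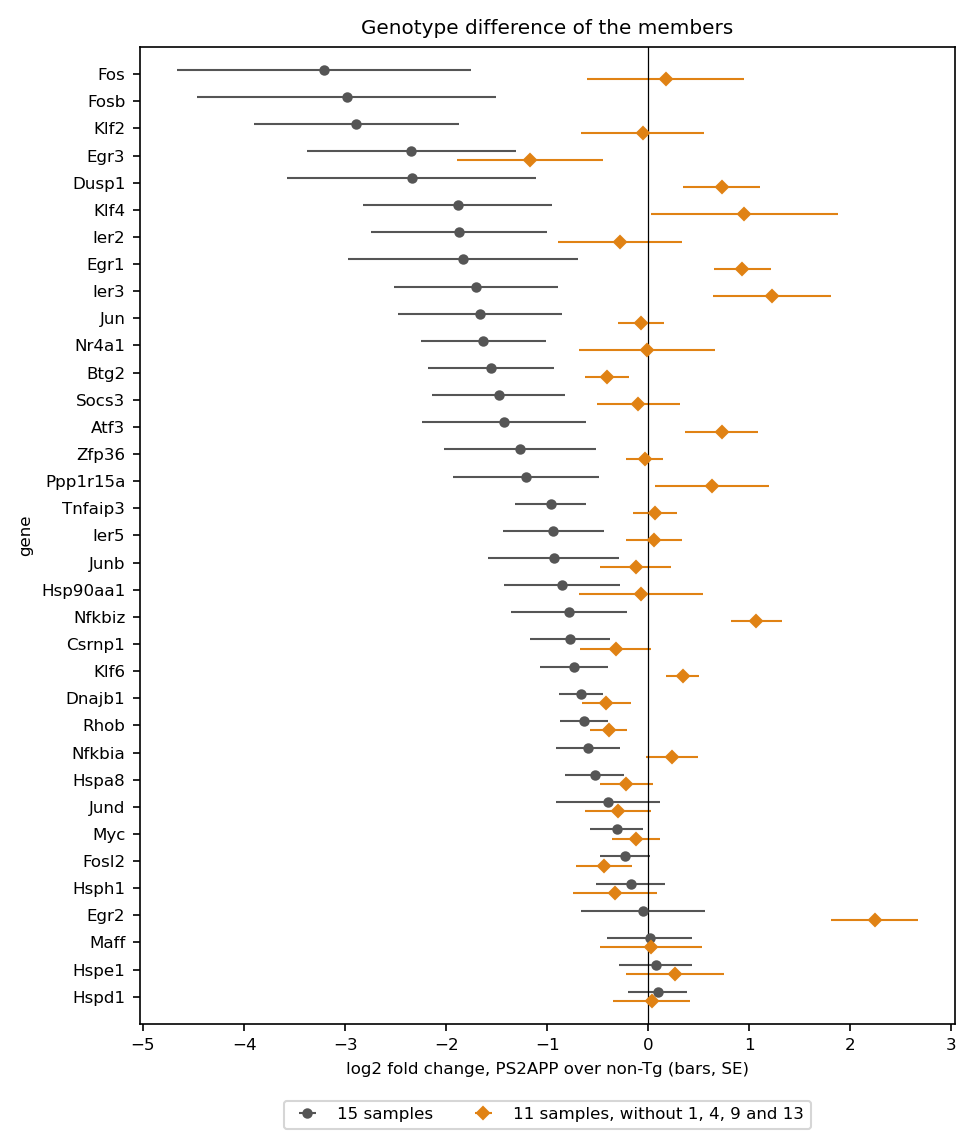
Log2 fold change of PS2APP over non-Tg with its SE, for each tested gene over all 15 samples (grey circles) and over 11 samples without 1, 4, 9 and 13 (orange diamonds; Fosb was not tested there). Most circles lie left of 0 with wide bars and most diamonds near 0, and Egr2 (2.24) and Nfkbiz (1.07) are the diamonds farthest to the right along with Ier3 (1.22).

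Age, 15 against 14 months, called 0 of the 35 genes by edgeR and DESeq2. Of all 13994 genes edgeR called 0% and DESeq2 called 10. In the edgeR fit 2 of the 35 had an unadjusted p under 0.05, against 1112 of the 13994. The smallest p belonged to Egr2 (log2 fold change -1.34 ± 0.60, edgeR adjusted p = 0.619) and Klf6 (-0.71 ± 0.34, edgeR adjusted p = 0.629). The difference of the genotype effect between ages was called in 0 of 35 genes by either tool, and by edgeR again in 0% of all genes. An unadjusted p under 0.05 was reached by 5 of the 35, against 1038 of the 13994. Nfkbiz (2.84 ± 0.96, edgeR adjusted p = 0.635), Egr3 (4.36 ± 1.65), Nfkbia (1.51 ± 0.57), Tnfaip3 (1.62 ± 0.64) and Egr2 (2.53 ± 1.09) had the smallest p. At 14 months the non-Tg group was samples 5 and 13 alone, so sample 13, the highest of all, was 1 of 2 values there.

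Genes of the same pathways outside the set were read from the same fits. Over all genes, 134 of 13994 were called higher in PS2APP over 15 samples, and 0.789% of 14195 over the 11. Of 28 other immediate early genes tested over 15 samples 1 rose, Bhlhe40, a circadian and immune transcriptional repressor (28.8 ± 16.2 CPM, SD, n = 9, against 3.87 ± 2.76, n = 6). Its log2 fold change was 2.76 ± 0.46 (edgeR adjusted p = 0.00165), and 2.62 ± 0.51 without the 4 libraries (edgeR adjusted p = 0.0161). Of 13 early cytokine and chemokine genes 2 rose, Csf1, a microglial growth factor (1.56 ± 0.33, edgeR adjusted p = 0.0153), and Cxcl10, an interferon-induced chemokine (1.63 ± 0.36, edgeR adjusted p = 0.0220). Without the 4 libraries Csf1 stood at 1.77 (edgeR adjusted p = 0.0530) and Cxcl10 at 1.96 (0.0579), while Ccl3, a chemokine of activated microglia, rose (2.29 ± 0.32, edgeR adjusted p = 0.000900; 0.22 ± 0.55 over all 15). None of the 28 or the 13 fell. Their median log2 fold changes were -0.38 and -0.57 over 15 samples, and 0.14 (20 of 30 positive) and 0.85 (8 of 12 positive) over 11. Of 22 upstream regulators, kinases and factors such as Srf and Creb1, 0 were called over 15 samples and 1 rose over 11, Atf1 (1.22 ± 0.28, edgeR adjusted p = 0.0397; 0.52 ± 0.29 over 15). No gene was called over either set of samples among the NF-kB subunits and regulators (16 tested), the heat shock factors and chaperones linked to HSF1 (24), the TRiC/CCT chaperonin (8) or the chaperones of endoplasmic reticulum and mitochondria (20). Unadjusted p-values under 0.05 over 15 samples included Nfkbib (-0.77 ± 0.26), Hspa4l (1.04 ± 0.46), Cct4 (-0.37 ± 0.17) and Sdf2l1 (0.49 ± 0.21), none of them past the test.

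The 4 libraries stood apart in some of these lists. Over all genes tested, 0.572% had all 4 above the other 11. In 7 of 28 other immediate early genes (Per1, Sgk1, Trib1, Plk3, Rgs1, Rgs2 and Zfp36l1) all 4 lay above the other 11, as in 3 of 13 early cytokine genes (Il1a, Ccl2 and Ccl4). Ccl2, a monocyte-attracting chemokine, ranged from 39.2 to 169 CPM in the 4 and from 1.24 to 27.9 in the rest, and Rgs1, a brake on G protein signals, from 104 to 435 against 7.20 to 37.1. Of the 16 NF-kB subunits and regulators 1 did so, Birc3, an inhibitor of apoptosis, with a median difference of 0.27 on the log2 scale over the list. Among the 22 upstream regulators 0 did so, with a median difference of 0.08 on the log2 scale. In the HSF1-linked, TRiC/CCT and organelle chaperone lists 0 of 24, 0 of 8 and 0 of 20 did, with median differences of 0.14, 0.07 and 0.11.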

How the data were processed

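RNA of 15 sorted samples was sequenced, and total RNA was extracted with a column kit per the labels' protocols. The aligner GSNAP and the build GRCm38 are named per the submitters' processing notes; their versions, the annotation, the kit and strand handling are not stated. Per the file headers, the deposited counts are raw numbers of reads aligned uniquely to each gene model, and the deposited RPKM (nRPKM) are adjusted by a size factor per sample whose making is not stated. Tests used the counts, and the RPKM served only for comparing levels between genes. NCBI Gene IDs were paired with symbols through a RefSeq table (GRCm38.p6); matched IDs held 97.2% to 98.2% of each sample's reads. Over 51 pairs of samples of a group chi-square divided by its degrees of freedom was at least 9.98, so each sample counted once.

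Genes passing filterByExpr on genotype (13994 over 15 samples, 14195 over 11) were fitted with edgeR 4.0.16 in R 4.3.3 (TMM, quasi-likelihood, age and genotype), and called at a Benjamini-Hochberg adjusted p under 0.05. A standard error is the size of the log2 fold change over the square root of F. Log2 CPM used a prior count of 2. Correlations had two-sided permutation tests with 100000 resamples. Alternatives included RLE scaling, unscaled libraries, leaving age out, other filters, DESeq2 1.42.0, limma-voom 3.58.1 with quality weights, each age alone, each sample left out, and, added after seeing the data, each of the 11 left out. The fit was tested on simulated counts with known changes. Sample numbers are unique to a sample, so none pair samples.

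Members and gene lists were chosen with earlier results of these data known, so no p is adjusted over a list alone. Named genes are those called for genotype with or without the 4 libraries; the 12 with the largest and 5 with the smallest difference between the 4 and the other 11; the 6 with the smallest genotype p; the highest nRPKM in each role group; Fos, Hsph1, Hspa1a and Hspa1b; up to 4 of each pathway list; and up to 5 each for age and interaction. Others named were chosen after their values were seen.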

Additional observations from a re-analysis of the deposited data

Results flagged for a closer look

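A sample lay far from the rest of its group, by Dixon's test at 95% on log2 CPM, in 5 of 100 groups examined over 25 named genes; chance flags about 1 in 20. Dnajb1 was at 73.0 CPM in PS2APP sample 4, with the next of the 9 at 45.4. Dnajb1 was also at 97.8 CPM in non-Tg sample 11, with the next of the 4 outside samples 9 and 13 at 46.5. Hsph1 was at 6.97 CPM in PS2APP sample 14, with the next lowest of 7 at 21.5. Nfkbiz was at 29.9 CPM in PS2APP sample 8, with the next lowest of 7 at 56.7. Nr4a1 was at 0.818 CPM in non-Tg sample 2, with the next lowest of 4 at 4.71.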

How the results depend on the processing

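No paired analysis was possible because no sample number is shared between the groups. Of the 35 genes, 0 were called for genotype in the main setting. The count was 22, all lower in PS2APP, when every gene with at least 1 read was kept (25970 genes, 648 called). That fit had infinite prior degrees of freedom against 9.51 in the filtered fit, so the spread of each gene was replaced by the common trend, and the quasi-dispersion of Fos was 0.648 instead of 43.7. The count was 2 without the 4 libraries and 0 to 2 over fits that left out a sample (2 without PS2APP sample 1). Over the 11 samples the count of 2 became 1 with no age term, RLE scaling, no scaling or limma-voom, and 1 to 2 when a further sample was left out. It was 3 with DESeq2 (with Egr1), and Egr2 was called in each. Of all 14195 genes DESeq2 called 551 there, against 142 in the main edgeR fit and 149 with limma-voom. With each gene taken less the mean of its genotype, 4 instead of 2 genes had r above 0.7 with Fos; the cause was not tested. Signs turned positive without the 4 libraries for Atf3 (0.73), Dusp1 (0.73), Egr1 (0.93), Egr2 (2.24), Fos (0.17), Ier3 (1.22), Ier5 (0.0605), Klf4 (0.95), Klf6 (0.34), Nfkbia (0.24), Nfkbiz (1.07), Ppp1r15a (0.63) and Tnfaip3 (0.0665). Over 15 samples Egr2 also turned, with 0.0224 under no scaling and 0.79 under limma-voom, and Hsph1 with 0.23 under limma-voom. With 1 sample left out the log2 fold change ran from -0.36 to 1.14 for Egr2, from -2.12 to 0.16 for Atf3, from -0.75 to 0.0266 for Nfkbia, from -1.08 to 0.63 for Nfkbiz, from -0.38 to 0.0292 for Fosl2, from -1.02 to 0.0731 for Jund, from -1.30 to 0.0617 for Hsp90aa1, from -0.19 to 0.35 for Maff, from -0.14 to 0.30 for Hspe1 and from -0.43 to 0.20 for Hsph1. Age and interaction counts stayed at 0 under every alternative run, though DESeq2 gave no adjusted p for 15 and 14 of the 35 genes. At 2 to 46 reads of Fos, depth limits what can be seen outside the 4 libraries.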

Other observations

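Outside the 40 genes and the pathway lists, 45 further genes of the 80 had all 4 libraries above the other 11; those named here were chosen after their values were seen. H1f3, a linker histone gene, ranged from 153 to 410.5 CPM in the 4 libraries and reached at most 23.9 in the rest, and H1f2, another, ranged from 87.0 to 262 against at most 24.8. Btg1, an antiproliferative relative of Btg2, reached 1521 CPM against at most 128, Adamts1, a secreted protease, 364 against 21.9, and Hmgb2, a chromatin protein, 396 against 14.6. Odc1, the first enzyme of polyamine synthesis, reached 101 CPM against 6.42. In 13 genes all 4 libraries lay below the other 11, and none of these is in the set or its pathway lists. Of these, Cp, the copper-binding ceruloplasmin, was at most at 55.1 CPM in the 4 and at least at 60.1 in the rest, and Atp8a1, a lipid flippase, at most at 520.8 against at least 521.7.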
